A study of Oryza sativa with 35 samples.

Results

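OsFD1 and the 14-3-3 genes GF14a, GF14b, GF14c, GF14d and GF14f encode the parts of the rice florigen activation complex other than florigen itself. They were taken as 6 named rows of a count table of 55801 loci: LOC_Os09g36910 (OsFD1), LOC_Os08g37490 (GF14a), LOC_Os04g38870 (GF14b), LOC_Os08g33370 (GF14c), LOC_Os11g34450 (GF14d) and LOC_Os03g50290 (GF14f). The rule uses only their names and no measured value, although the genes were picked with earlier results of these data known. Of the 55801 loci, 24425 had at least 1 count and 7406 passed a filter on low counts and were tested, among them all 6 of these genes.

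RNA from inflorescence meristems of rice, the tissue at the tip of the shoot that forms the panicle, was profiled by CEL-Seq2, which primes on the poly(A) tail, reads the 3′ end of each transcript and tags every molecule with a unique molecular identifier (UMI), so that UMIs count molecules. Of 35 libraries, 16 were of the japonica cultivar Koshihikari (5 of tissue code R1, 5 of R2, 3 of R4 and 3 of R5) and 19 of NIL-Gn1 (8, 8, 1 and 2). The name NIL-Gn1 stands for a near-isogenic line at the grain number locus Gn1; the labels give neither its allele nor the meaning of the tissue codes, so that the codes are used here as names only. All plants of both lines grew in short days of 10 h light and 14 h dark. Each library was made from 100 pg of RNA with 11 to 15 PCR cycles. Whether the libraries of a group stem from different plants is not stated, so p-values measure the spread between libraries, which may be technical.

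Florigen, the protein product of Hd3a, is made in rice leaves in inductive day lengths and travels to the shoot apex. There it binds a 14-3-3 protein, which acts as its receptor in the cell and carries it to OsFD1, a bZIP transcription factor. The resulting complex activates floral identity genes such as OsMADS15, and TFL1-like proteins compete with florigen for the same 14-3-3 partners. Proteins of the 14-3-3 family also bind many other phosphorylated clients, so their transcripts are not particular to flowering.

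Levels are given as UMIs per 1000000 UMIs (CPM) over the tested loci, scaled with TMM factors, which correct for differences in RNA composition between libraries. Libraries held 76743 to 375071 UMIs with a median of 133163. The limit that a count of 0 allows (3 UMIs) was between 8.00 and 39.1 per 1000000 UMIs of the whole library, depending on depth. This limit is not on the scale of the levels, on which 3 UMIs stand higher. In Koshihikari R1 replicate 1 the limit was 27.5, and 3 UMIs of GF14b gave a level of 31.7 CPM. All 6 genes had UMIs in every library, from 377 UMIs over the series for GF14b to 5456 for GF14f. The 14-3-3 genes are close relatives with similar sequences. How the authors' counting treated reads that fit several copies is not given in the sources used here, so the division of reads among them is uncertain. Log2 fold changes and adjusted p-values are from edgeR's quasi-likelihood test with Benjamini-Hochberg adjustment over all 7406 tested loci, and a gene is called higher or lower when its adjusted p is under 0.05.

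The meristem character of the tissue was checked against marker genes. The summed level of OSH1, OSH15, OSH43 and PNH1, of which the first 3 are class I KNOX homeobox genes of the meristem, was 305 to 780 CPM over the Koshihikari R1 and R2 libraries, 462 to 553 CPM over R4 and R5, and 412 to 973 CPM over all NIL-Gn1 libraries, although OSH43 alone had 1 UMI in the series. Of its 3 tested members 1, OSH15, was called lower in R4 and R5 of Koshihikari (-0.94 in log2, SE 0.276, adjusted p = 0.00979), with means of 139 and 173 CPM in R1 and R2 and 85.3 and 79.2 CPM in R4 and R5, and 0 of 3 were called in NIL-Gn1. The sum of 8 floral organ MADS-box genes stayed between 0 and 92.1 CPM, and OsMADS3 had no UMI in any library. Leaf markers were present too. Their sum (6 genes, all with UMIs) was 159 to 478 CPM in Koshihikari R1 and R2 and 592 to 1972 CPM in R4 and R5, with no overlap, and it was 113 to 881 CPM and 403 to 925 CPM in NIL-Gn1. In Koshihikari the 3 tested leaf markers, CAB1R, CAB2R and PsbO, were all called higher in R4 and R5 (log2 1.83, 2.22 and 2.38), and in NIL-Gn1 none was (0.78, 0.95 and 0.77). Lateral organ markers (DL, TOB1 and OsYAB1) summed to 414 to 761 CPM in Koshihikari R1 and R2 and to 574 to 953 CPM in R4 and R5. In NIL-Gn1 these sums were 286 to 684 CPM and 519 to 899 CPM. The sum covers opposite directions: in Koshihikari TOB1 was called higher (0.94, adjusted p = 6.68e-07; means 295, 351, 532 and 712 CPM in R1, R2, R4 and R5) and DL lower (-0.95, adjusted p = 0.0486; means 263, 157, 105 and 103 CPM). In NIL-Gn1 TOB1 was called higher (0.62, adjusted p = 0.0213) and DL was not called (0.45, adjusted p = 0.598).

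Of these genes some were called between tissue codes and none between lines. Few loci of any kind were called between lines, 0.149% to 2.32% of those tested. R4 and R5 against R1 and R2 called 16.5% of tested loci in Koshihikari and 3.93% in NIL-Gn1. OsFD1 was about 2.19-fold lower in R4 and R5 than in R1 and R2 of Koshihikari, and GF14a was 1.37-fold lower. GF14b, a minor 14-3-3 transcript in R1 and R2, was 2.51-fold higher in Koshihikari and 3.21-fold higher in NIL-Gn1, and GF14c was 1.40-fold and 1.43-fold higher. GF14d and GF14f were not called in any of the 11 comparisons run.

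OsFD1, the DNA-binding member, was at 455, 240, 275, 441 and 527 CPM in Koshihikari R1 replicates 1 to 5. In R2 of that line the values were 305, 153, 426, 572 and 450 CPM. The R4 libraries (replicates 2, 3 and 4) were at 296, 195 and 188 CPM, and the R5 libraries (replicates 2, 3 and 5) at 144, 133 and 139 CPM. The R1 and R2 libraries thus spread widely, the R5 libraries were close together, and every R5 library lay below every R4 library, although 3 of the 6 R4 and R5 libraries lay within the R1 and R2 range. Ordered by mean, Koshihikari R5 was lowest and did not overlap Koshihikari R4, the next group, while all other neighbouring groups of the 2 lines overlapped. The means were 387 ± 124 CPM in R1 (SD, n = 5), 381 ± 159 CPM in R2 (SD, n = 5), 226 ± 60.4 CPM in R4 (SD, n = 3) and 139 ± 5.77 CPM in R5 (SD, n = 3).

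In NIL-Gn1, OsFD1 ran from 188 to 705 CPM over the 8 R1 libraries (median 353) and from 265 to 539 CPM over the 8 R2 libraries (median 457). The single R4 library was at 245 CPM and the R5 libraries at 185 and 290 CPM. Of these 3 libraries 1 was below every R1 and R2 library, and the others were in the lower part of the R1 and R2 range.

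R4 and R5 as a pair differed from R1 and R2 in OsFD1 by a log2 fold change of -1.13 in Koshihikari (SE 0.309, adjusted p = 0.0105). The corresponding NIL-Gn1 value was -0.81 (SE 0.345, adjusted p = 0.234) and was not called. The difference between these line-specific values was 0.32 (SE 0.462, adjusted p = 0.828, edgeR interaction term), so a difference between the lines was not shown. The Koshihikari call was lost, at -0.99 with adjusted p = 0.0540, when R2 of that line was reduced to replicates 2 and 3, a setting added after the data were seen. In bulk samples such as these, fewer cells that express a gene and less of its RNA per cell cannot be told apart. In the same Koshihikari libraries, in which OsFD1 and GF14a were lower, the leaf marker sum was higher. Of 3 tested meristem markers 1, OSH15, was called lower, and 2, OSH1 and PNH1, were not called. The meristem marker sum of 462 to 553 CPM in R4 and R5 lay within the R1 and R2 range of 305 to 780 CPM. The part of these markers in the OsFD1 result was not tested.

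**Figure D1:**
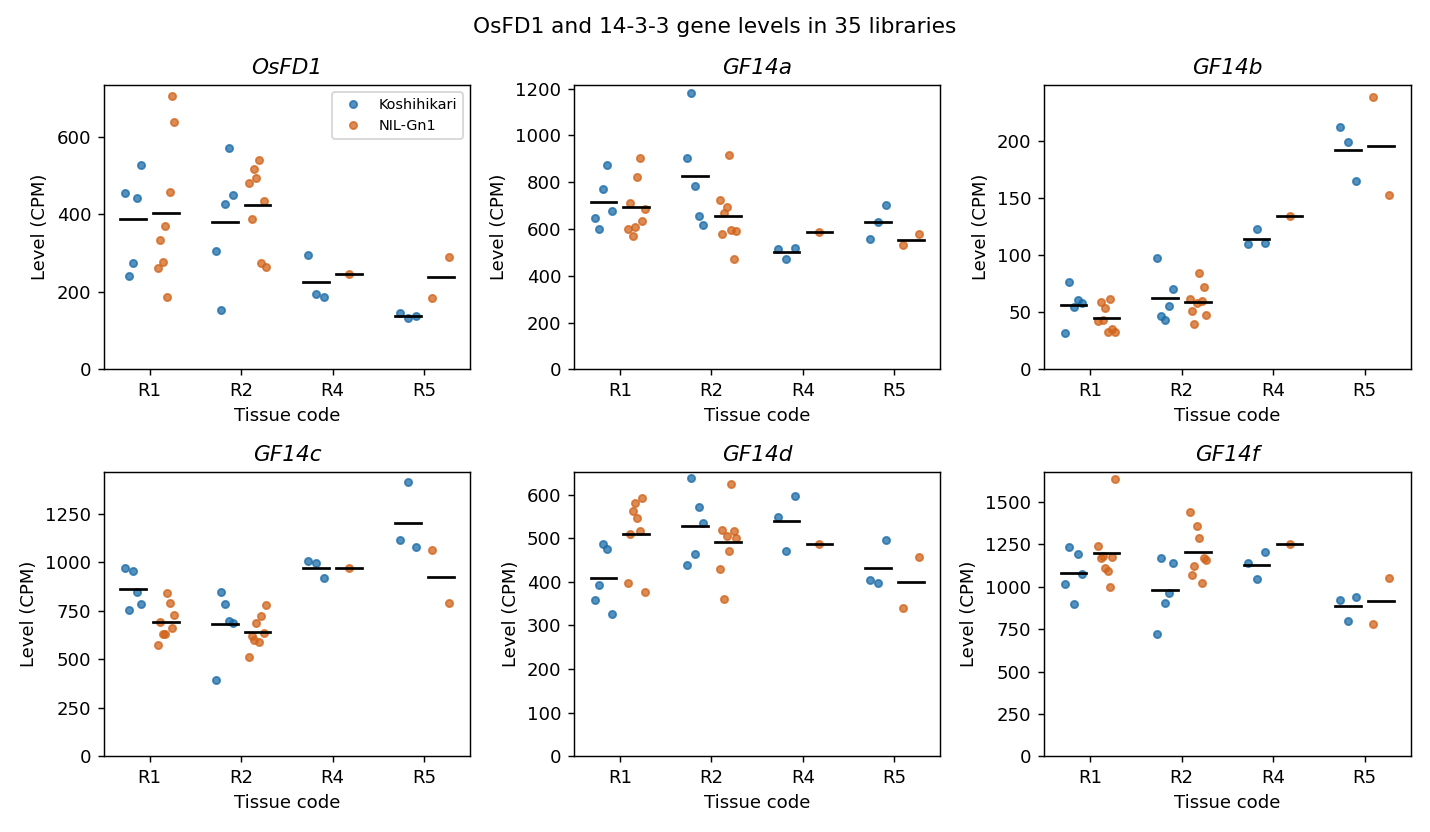
Level of each of the 6 genes in CPM (linear vertical axes, each with its own scale) by line and tissue code; each point is a library and each bar a group mean. GF14b in R4 and R5 (110 to 239 CPM) lies above all R1 and R2 libraries (31.7 to 97.7 CPM) in both lines, while GF14f stays between 721 and 1634 CPM throughout.

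GF14b was the 14-3-3 gene with the clearest course, though on few UMIs per library. Koshihikari libraries held 3 to 13 GF14b UMIs in R1, 4 to 8 in R2, 10 to 12 in R4 and 18 to 22 in R5. NIL-Gn1 libraries held 4 to 15 in R1, 6 to 13 in R2, 34 in R4, and 10 and 40 in R5. In Koshihikari R1 GF14b was at 31.7, 76.3, 55, 61.1 and 58.0 CPM and in R2 at 97.7, 47.2, 43.2, 55.8 and 70.3 CPM. R4 libraries of that line were at 110, 123 and 111 CPM, and R5 libraries at 212, 199 and 165 CPM. All 6 R4 and R5 libraries were therefore above all 10 R1 and R2 libraries, and all R5 libraries above all R4 libraries. NIL-Gn1 showed the same order of codes, with 32.6 to 61.4 CPM in R1 (median 42.7), 40.1 to 84.2 CPM in R2 (median 59.0), 134 CPM in R4 and 239 and 152 CPM in R5.

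For GF14b the difference of R4 and R5 from R1 and R2 was 1.33 in log2 in Koshihikari (SE 0.272, adjusted p = 0.000101) and 1.68 in NIL-Gn1 (SE 0.273, adjusted p = 1.52e-06). Both calls were kept under all alternatives run, 25 and 27 in number, with the highest adjusted p at 0.000732 and 0.0135. The step from R2 to R4 in Koshihikari (0.92, SE 0.410, adjusted p = 0.174) and that from R4 to R5 (0.74, SE 0.384, adjusted p = 0.697) were not called on their own. The leaf marker sum, mostly of CAB1R and CAB2R, stood apart in the same Koshihikari libraries. In NIL-Gn1 the leaf sums were 403 CPM in the R4 library and 411 and 925 CPM in the R5 libraries, against 113 to 881 CPM in R1 and R2, and across all 35 libraries GF14b had an r of 0.694 with the leaf marker CAB1R. The part of leaf transcripts in the GF14b result was not tested.

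GF14c was at 973, 752, 954, 848 and 785 CPM in Koshihikari R1 and at 391, 850, 788, 697 and 689 CPM in R2. It was at 1008, 995 and 918 CPM in R4 and at 1116, 1417 and 1077 CPM in R5. The R5 libraries were above all others of the line, and R2 replicate 1 was the lowest. In NIL-Gn1 the level was 574 to 840 CPM in R1 (median 679), 511 to 778 CPM in R2 (median 628), 972 CPM in R4 and 1062 and 792 CPM in R5. R4 and R5 were higher than R1 and R2 by 0.49 in log2 in Koshihikari (SE 0.121, adjusted p = 0.00168) and by 0.52 in NIL-Gn1 (SE 0.144, adjusted p = 0.0171). The NIL-Gn1 call rested on single libraries: without R4 replicate 1 the adjusted p was 0.0835, and without R5 replicate 1 the difference was 0.39 with adjusted p = 0.381.

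GF14a moved the other way in Koshihikari. It was at 645, 600, 770, 875 and 678 CPM in R1, at 904, 1180, 782, 655 and 618 CPM in R2, at 515, 472 and 520 CPM in R4 and at 558, 631 and 704 CPM in R5. All R4 libraries were below all R1 and R2 libraries, whereas R5 overlapped them. The difference of R4 and R5 from R1 and R2 was -0.45 in log2 (SE 0.136, adjusted p = 0.0111), and that of R4 from R2 alone was -0.72 (SE 0.197, adjusted p = 0.0129). Both calls leaned on R2 replicate 2, the library at 1180 CPM: without it they were -0.36 (adjusted p = 0.0592) and -0.55 (adjusted p = 0.0917). The first was also lost without R5 replicate 2 (-0.38, adjusted p = 0.0668), and the second without R4 replicate 2 (-0.74, adjusted p = 0.0508) or R4 replicate 3 (-0.68, adjusted p = 0.0821).

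In NIL-Gn1, GF14a was at 571 to 904 CPM in R1 (median 660), 472 to 918 CPM in R2 (median 633), 589 CPM in R4 and 531 and 579 CPM in R5. The groups overlapped, and the difference of R4 and R5 from R1 and R2 was -0.23 (SE 0.164, adjusted p = 0.556).

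GF14d and GF14f were not called between codes. GF14d had group means between 399 and 539 CPM, with 408 ± 70.6 CPM in Koshihikari R1 (SD, n = 5) and 433 ± 54.2 CPM in R5 (SD, n = 3), and 511 ± 81.9 CPM (SD, n = 8) and 399 ± 82.8 CPM (SD, n = 2) in the same codes of NIL-Gn1. The GF14d differences of R4 and R5 from R1 and R2 were 0.07 in Koshihikari (SE 0.142, adjusted p = 0.796) and -0.21 in NIL-Gn1 (SE 0.169, adjusted p = 0.610). GF14f was at 1083 ± 135, 979 ± 183, 1131 ± 80.4 and 886 ± 77.8 CPM in R1, R2, R4 and R5 of Koshihikari (SD, n = 5, 5, 3 and 3). In NIL-Gn1 it was at 1201 ± 189 and 1204 ± 144 CPM in R1 and R2 (SD, n = 8 each), 1252 CPM in R4 and 917 ± 191 CPM in R5 (SD, n = 2). The GF14f differences were -0.04 (SE 0.116, adjusted p = 0.870) and -0.18 (SE 0.142, adjusted p = 0.613).

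**Figure D2:**
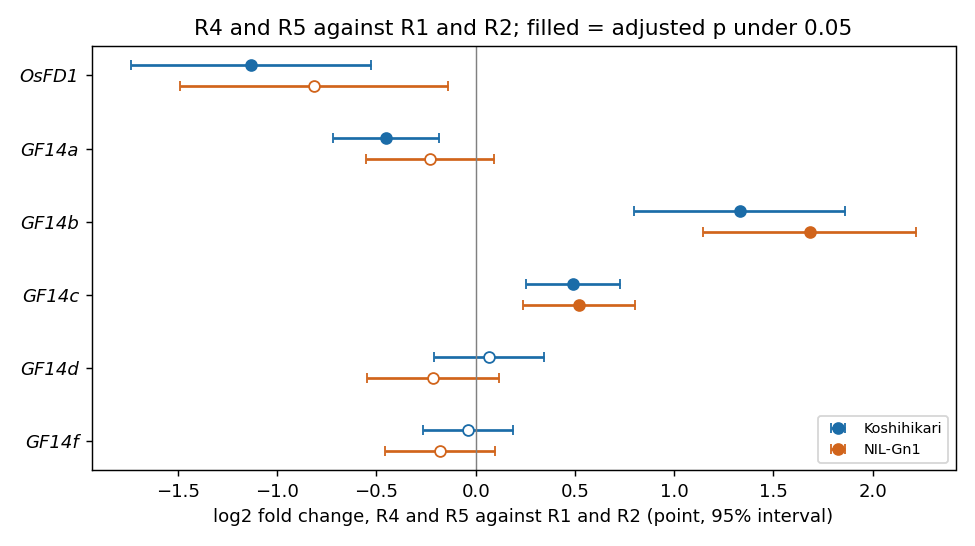
Log2 fold change of R4 with R5 against R1 with R2 for each gene and line, with 95% intervals; filled points have an adjusted p under 0.05. GF14b (1.33 and 1.68) and GF14c (0.49 and 0.52) lie above 0 in both lines, OsFD1 (-1.13 and -0.81) below it.

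In Koshihikari 4 of the 6 genes were called between R4 and R5 and R1 and R2, 2 higher (GF14b, GF14c) and 2 lower (OsFD1, GF14a), where edgeR called 16.5% of all tested loci (8.87% higher, 7.6% lower). In NIL-Gn1 2 of 6 were called, both higher, against 3.93% of all tested loci (2.89% higher, 1.04% lower). The median log2 fold change over the 6 genes was 0.02 in Koshihikari and -0.20 in NIL-Gn1, beside -0.06 and -0.05 over all tested loci. Between the steps, 1 of 6 genes, GF14a, was called from R2 to R4 in Koshihikari, where 6% of loci were called. The line difference of the R4 and R5 value was 0.22 for GF14a (SE 0.211, adjusted p = 0.717). From R4 to R5 in that line 0 of 6 genes and 0% of loci were called by edgeR, although 536 loci had an unadjusted p under 0.05, and DESeq2 called 1 locus and limma-voom 2. From R1 to R2 over both lines 0 of 6 and 0% of loci were called, with 530 loci at an unadjusted p under 0.05, and DESeq2 and limma-voom called 0. The largest member value there was 0.22 in size. In the test of whether the R4 and R5 difference itself differed between lines, 0 of 6 genes were called (0.311% of loci), and all 6 differences lay between -0.28 and 0.35 in log2, with 0 of 6 at an unadjusted p under 0.05 and 0 called by DESeq2 or limma-voom.

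GF14b and GF14c were higher and GF14a lower in the same Koshihikari libraries, and the level summed over the 14-3-3 genes was similar across groups. The sum of the 5 genes was 3124 ± 204, 3082 ± 488, 3260 ± 134 and 3346 ± 118 CPM in R1, R2, R4 and R5 of Koshihikari (SD, n = 5, 5, 3 and 3), and 3143 ± 202, 3053 ± 211, 3433 and 2993 ± 56.2 CPM in NIL-Gn1 (SD, n = 8, 8 and 2, with 1 library at R4). Over all 35 libraries it lay between 2553 and 3883 CPM. UMIs count 1 per molecule and are not divided by transcript length, so shares describe captured 3′ ends and are no ranking of the proteins.

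GF14b made up a mean of 1.81% of these UMIs in Koshihikari R1, 2.14% in R2, 3.52% in R4 and 5.75% in R5, and 1.44%, 1.94%, 3.91% and 6.55% in NIL-Gn1. The GF14c share went from 27.7% and 22.0% in Koshihikari R1 and R2 to 29.9% in R4 and 35.9% in R5, and from 22.0% and 21.2% to 28.3% and 31.0% in NIL-Gn1. GF14a had 22.8%, 26.9%, 15.4% and 18.8% of the sum in R1, R2, R4 and R5 of Koshihikari, and 22.0%, 21.4%, 17.1% and 18.5% in NIL-Gn1. None of these shares was tested. GF14f was at 34.7%, 31.7%, 34.7% and 26.6% in Koshihikari and at 38.3%, 39.4%, 36.5% and 30.6% in NIL-Gn1. The GF14d share stayed between 12.9% and 17.2% in the group means.

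**Figure D3:**
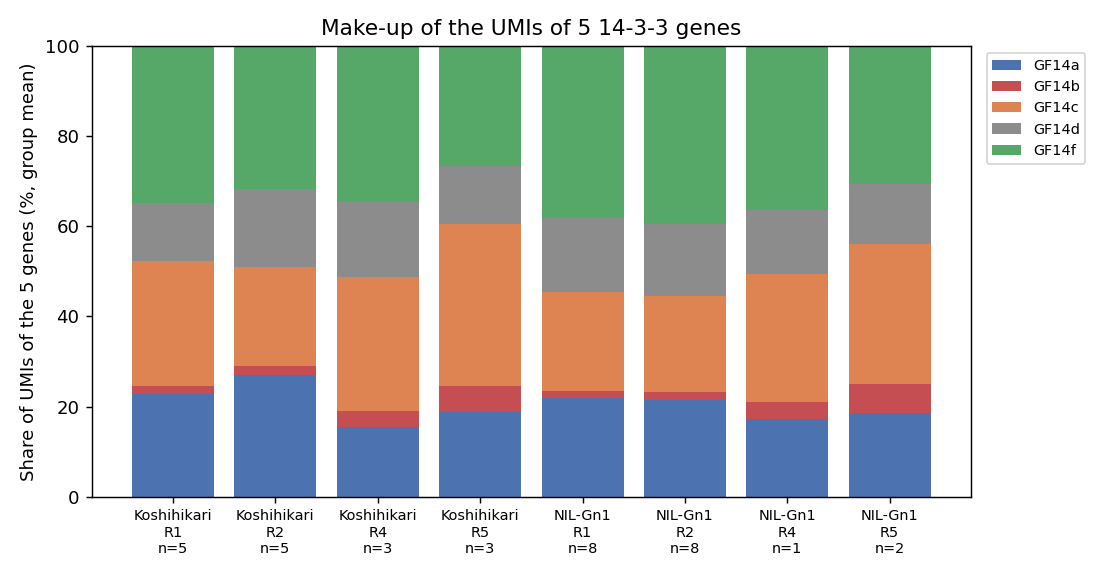
Mean share (%) of each of 5 14-3-3 genes in their summed UMIs, by line and tissue code, as stacked bars that start at 0 and end at 100. The GF14b segment grows from 1.81% at R1 to 5.75% at R5 in Koshihikari and from 1.44% to 6.55% in NIL-Gn1.

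Set against the same pool of 14-3-3 transcripts, OsFD1 had 12.5 ± 4.27 UMIs per 100 UMIs of the 5 GF14 genes in Koshihikari R1 (SD, n = 5) and 12.9 ± 5.68 in R2 (SD, n = 5). It had 6.93 ± 1.75 in R4 (SD, n = 3) and 4.15 ± 0.318 in R5 (SD, n = 3). The NIL-Gn1 values were 12.8 ± 5.52 in R1 and 13.9 ± 3.42 in R2 (SD, n = 8 each), 7.13 in the R4 library and 7.91 ± 2.32 in R5 (SD, n = 2). The ratio was thus lower in R4 and R5 than the R1 and R2 means in both lines, as a description of captured ends only. Single libraries overlapped: Koshihikari R2 reached down to 3.95 and R5 up to 4.49. In NIL-Gn1, R1 reached down to 5.62, and R5 was at 6.26 and 9.55. The ratio was not tested.

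Between the lines, 0 of the 6 genes were called at R1 (0.675% of loci called), at R2 (0.5%), at R4 (0.149%), at R5 (0.351%) or over R1 and R2 together (2.32%). At an unadjusted p under 0.05 there were 2, 2, 0, 0 and 3 of the 6, and DESeq2 and limma-voom called 0 in each of these comparisons. The smallest adjusted p over these comparisons was 0.190, for GF14f over R1 and R2, which was 0.22 higher in NIL-Gn1 in log2 (SE 0.0883). Other values were -0.35 for GF14a at R2 (adjusted p = 0.300), -0.32 for GF14c at R1 (adjusted p = 0.332) and 0.34 for GF14d at R1 (adjusted p = 0.375). The largest value was that of OsFD1 at R5, 0.68 (SE 0.586, adjusted p = 0.767). Its 95% interval of -0.47 to 1.83 included 0 and left room for a much higher or a somewhat lower level in NIL-Gn1. The 6 values lay between -0.33 and 0.34 at R1, -0.35 and 0.30 at R2, and -0.15 and 0.23 at R4. R4 rests on 1 NIL-Gn1 library, which is assumed to vary like the other groups.

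**Figure D4:**
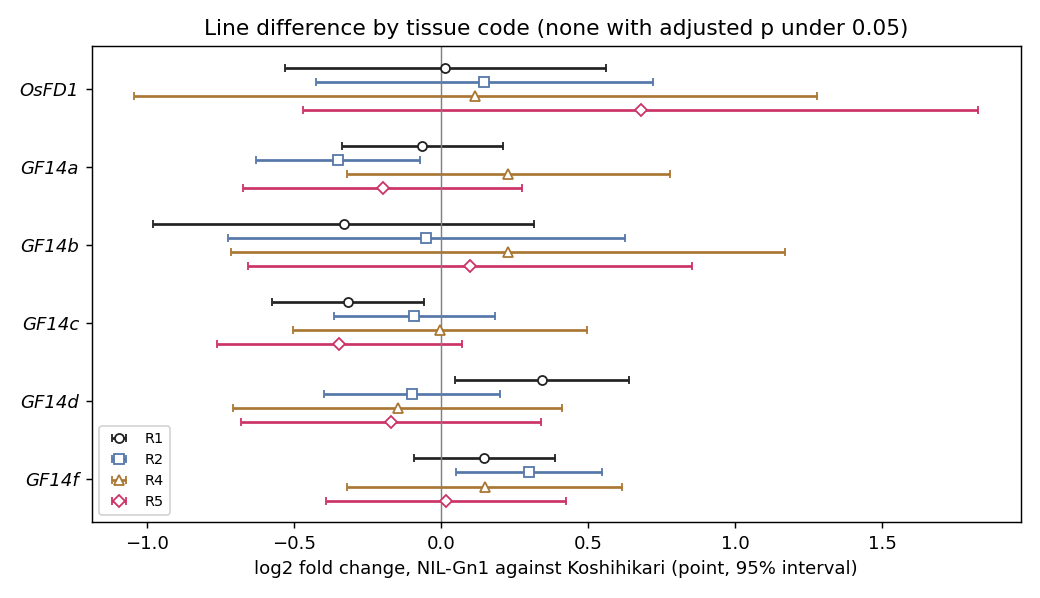
Log2 fold change of NIL-Gn1 against Koshihikari for each gene at R1, R2, R4 and R5, with 95% intervals. All intervals at R4 and R5 include 0, and no point has an adjusted p under 0.05.

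The genes also differed in how much they varied between libraries of a group. OsFD1 had a biological coefficient of variation of 32.0%, above that of 81.7% of tested loci (median 23.9%). The 5 14-3-3 genes had 14.8% (GF14f) to 18.2% (GF14b). OsFD1 had 1753 UMIs over the series and an SE of 0.309 in the Koshihikari contrast of R4 and R5 with R1 and R2, where GF14b, with 377 UMIs, had 0.272.

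Over the 35 libraries, log2 levels of OsFD1 were negatively correlated with GF14b (Pearson's r = -0.604) and GF14c (-0.584), and GF14b with GF14c positively (0.515). These libraries share tissue codes and lines as well as depth. As deviations from the group means the same r were -0.0741, -0.184 and -0.406. The relations across all libraries were thus weak or of opposite sign within groups, and are descriptions only. The locus whose course was most like that of OsFD1 was LOC_Os12g38440 (r = 0.886 over 35 libraries, 0.815 as deviations from group means). For GF14b it was LOC_Os07g31720 (0.894, and 0.520 as deviations) and for GF14c it was LOC_Os03g50885 (0.816 and 0.605). Each was the highest of 7406 loci, and no table used here gives these loci a name.

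Among other 14-3-3 genes 1 of 3 was tested. GF14e (LOC_Os02g36974) averaged 139, 116, 187 and 208 CPM in R1, R2, R4 and R5 of Koshihikari and 138, 130, 201 and 170 CPM in NIL-Gn1. It was called higher in R4 and R5 of Koshihikari (0.65, SE 0.223, adjusted p = 0.0294), a call lost in 8 of 25 alternatives, and not in NIL-Gn1 (0.48, adjusted p = 0.329). The difference between lines was -0.17 (adjusted p = 0.872). GF14g had few UMIs and GF14h 2 in the whole series. Of the other FD-like bZIP genes 3 of 5 were tested (OsFD2, OsFD3 and HBF1) and 0 were called in either line. OsFD3 (LOC_Os02g58670) had -0.88 in Koshihikari (SE 0.355, adjusted p = 0.0753). OsFD4 (LOC_Os08g43600) had 0 UMIs in all 35 libraries; the limit over the series is then 0.539 CPM.

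The Hd3a transcript, which is made in leaves, was not detected in the meristems: Hd3a had 0 UMIs in each of the 35 libraries, with the same limit of 0.539 CPM. Of the florigen and TFL1-like genes 1 of 6 was tested, OsFTL1 (LOC_Os01g11940), a florigen-like gene whose symbol rests on the list alone. It averaged 4.03, 41.0, 164 and 267 CPM in R1, R2, R4 and R5 of Koshihikari, and 8.25, 36.3, 47.4 and 52.7 CPM in NIL-Gn1. The difference of R4 and R5 from R1 and R2 was 3.77 in Koshihikari (SE 0.500, adjusted p = 2.46e-07) and 1.63 in NIL-Gn1 (SE 0.610, adjusted p = 0.145). The difference between the lines in that value was -2.13 (SE 0.869, adjusted p = 0.286) and was not called. Of the TFL1-like genes, which keep meristems indeterminate, those looked at were near the floor: RCN4 had 0 UMIs, RCN3 2 and RCN2 11 in the series. RCN1, another TFL1-like gene, was left out, so its level is not known here.

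All 4 MADS-box genes listed as targets downstream of the complex were tested. In Koshihikari 3 were called higher in R4 and R5, against 8.87% of tested loci, and 0 lower, against 7.6%. OsMADS14 was higher by 1.43 (SE 0.363, adjusted p = 0.00617), OsMADS15 by 1.84 (SE 0.420, adjusted p = 0.00259) and OsMADS34 by 2.31 (SE 0.593, adjusted p = 0.00258). OsMADS15, a floral meristem identity gene, averaged 155, 207, 495 and 826 CPM over R1, R2, R4 and R5 of that line and 134, 154, 533 and 375 CPM in NIL-Gn1. OsFD1 was lower in the same Koshihikari codes in which OsMADS14, OsMADS15 and OsMADS34 were higher. In NIL-Gn1 all 4 targets were called higher, against 2.89% of tested loci. Their values were 1.39 for OsMADS14 (adjusted p = 0.0494), 1.70 for OsMADS15 (adjusted p = 0.0357), 0.61 for OsMADS18 (adjusted p = 0.0218) and 2.81 for OsMADS34 (adjusted p = 0.00130). The calls of OsMADS14 and OsMADS15 were lost in 17 and 6 of 27 alternatives, that of OsMADS18 in 3, and that of OsMADS34 without R5 replicate 1 (2.53, adjusted p = 0.270). In Koshihikari the leaf markers and TOB1 were called higher in the same contrast and DL lower, and their part was not tested. Of the 14-3-3 client factors OsBZR1 and RSG, which act in brassinosteroid and gibberellin signalling, both were tested and 0 were called in either line by edgeR. In Koshihikari their values were -0.49 and -0.49, and in NIL-Gn1 -0.50 and -0.94, the last with an unadjusted p of 0.0201.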

How the data were processed

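The authors deposited raw UMI counts per MSU locus for 35 CEL-Seq2 libraries. Per the submitters' processing notes Bowtie2 and Subread were used; their roles, versions and the genome build are not given in the sources used here. edgeR 4.0.16 under R 4.3.3 was used for TMM factors, for the low-count filter (filterByExpr) and for a robust quasi-likelihood fit in which each of the 8 groups had its own mean. The 7406 loci that passed held 86.7% of UMIs. The common biological coefficient of variation was 21.1%. The SE was the size of a log2 fold change divided by the square root of F. Intervals are unadjusted 95% intervals. Limits for a count of 0 use 3 UMIs over all UMIs of the library or series, without TMM factors, and cover counting error only. DESeq2 1.42.0, limma 3.58.1 (voom), RLE and upper quartile scaling, other filters, a fit restricted to the libraries of the contrast, a block for the replicate number, and omission of single libraries were alternatives. Settings with Koshihikari R2 reduced to replicates 2 and 3, and without the only NIL-Gn1 R4 library with R5 standing for both codes, were added after the data were seen. Of 83 pairs of libraries within groups none was a duplicate (lowest chi-square per degree of freedom 1.37). Figures were drawn with matplotlib 3.10.9 (Python 3.11.15, pandas 2.3.3, numpy 2.4.6).

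The members, lists and comparisons were chosen with earlier results of these data known. Named genes were all members, list genes that were called or had 0 UMIs, and the locus and the listed gene with the highest r to each member; OsFD3, OsBZR1, RSG and the few-UMI genes were named after their values were seen. The RefSeq gene table was searched for each symbol (assembly ASM3414082v1): 5 of the 6 members had an entry on the same chromosome, and OsFD1 had none. Of 42 other list genes 25 had one, 16 had none and rest on the list alone (OsFTL1, OsFD2, OsFD3, OsFD4, HBF1, HBF2, RCN2, RCN3, RCN4, GF14h, RSG, TOB1, PsbO and 3 RBCS genes), and RCN1, placed on another chromosome, was left out.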

Additional observations from a re-analysis of the deposited data

Results flagged for a closer look

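GF14f in NIL-Gn1 R1 had 1 library far from the others: replicate 8 was at 1634 CPM and the other 7 at 1000 to 1241 CPM, a gap of 0.621 of the group's range. This was 1 of 24 groups of members looked at in this way, of which chance flags about 5%. With that library the line difference of GF14f at R1 was 0.15 in log2 (adjusted p = 0.716), and without it 0.08 (adjusted p = 0.872), so it was called in neither case.

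OsMADS18, a MADS-box gene listed as a target of the complex, differed between lines in its course. It was called lower in NIL-Gn1 at R1 (-0.70, adjusted p = 0.00947) and over R1 and R2 (-0.54, adjusted p = 0.00149), and was not called between lines at R2 (-0.37, adjusted p = 0.374), R4 (0.53, adjusted p = 0.723) or R5 (0.39, adjusted p = 0.666). R4 and R5 against R1 and R2 was -0.39 in Koshihikari (adjusted p = 0.0651) and 0.61 in NIL-Gn1 (adjusted p = 0.0218). The difference between these values was 1.00 (SE 0.229, adjusted p = 0.0153, edgeR interaction term), 1 of 23 loci called in that test. It was not called without Koshihikari R5 replicate 2 (0.92, adjusted p = 0.0607), NIL-Gn1 R4 replicate 1 (1.00, adjusted p = 0.0576) or NIL-Gn1 R5 replicate 2 (0.85, adjusted p = 0.0985).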

How the results depend on the processing

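Of 1572 alternative values of the 66 member results, 1489 kept their direction and their side of the threshold, 8 were no longer called, 2 became called and 73 changed sign. All sign changes were of uncalled values of at most 0.37 in size, with adjusted p of at least 0.849. The line differences of members were not called in any of the settings run. The calls of GF14b in both lines and of GF14c in Koshihikari held under all alternatives. Without the low-count filter OsFD1 in R4 and R5 of NIL-Gn1 was at -0.80 and called (adjusted p = 0.0207); with R2 of Koshihikari cut down to its replicates 2 and 3, the OsFD1 call in Koshihikari was lost at -0.99. The cause of neither was tested.

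Signs changed as follows, in log2. Upper quartile scaling gave 0.065 for GF14c between lines at R4 and -0.016 for GF14d from R2 to R4. No filter gave 0.039 for GF14b at R2, 0.19 for GF14c and 0.041 for GF14d at R4, and -0.059 for GF14f at R5 between lines, and -0.046 for OsFD1 from R1 to R2; it also moved the median of all loci at R4 between lines by 0.186. Limma-voom gave -0.14 for OsFD1 at R1, 0.012 for GF14b at R2 and -0.023 for GF14f at R5 between lines. Fitting only the groups compared gave 0.041 for GF14c between lines at R4 and -0.0069 for GF14d from R2 to R4. The reduced Koshihikari R2 gave 0.37 for GF14b at R2 and 0.015 over R1 and R2 between lines, and -0.13 for OsFD1 from R1 to R2.

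With the replicate number as a block no member's call changed: R4 and R5 against R1 and R2 was -1.07 for OsFD1, -0.45 for GF14a, 1.36 for GF14b and 0.45 for GF14c in Koshihikari, and 1.57 for GF14b and 0.69 for GF14c in NIL-Gn1. The block turned the sign of line differences of OsFD1 at R1 (-0.19), R2 (-0.0045) and over both (-0.10), GF14c at R4 (0.17), GF14d at R4 (0.16) and GF14b at R5 (-0.077), and of GF14d from R2 to R4 (-0.026). No pairing by number was seen. Over 64 pairs with the same number, pairs across lines among them, r ran from -0.0552 to 0.141, 1 of them over 0.1. Within lines, 0 of 12 R1 libraries correlated best with the R2 library of their own number. With pairs across lines included and so few R1 libraries, these checks cannot decide whether the numbers pair libraries.

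Leaving out each library in turn gave these ranges. R4 and R5 against R1 and R2 was -0.50 to -0.36 for GF14a and -0.067 to 0.018 for GF14f in Koshihikari, and 0.39 to 0.61 for GF14c in NIL-Gn1; the line difference of that value was -0.12 to 0.11 for GF14c. R4 against R2 in Koshihikari was -0.81 to -0.55 for GF14a, and -0.036 to 0.13 for GF14d. R2 against R1 was -0.017 to 0.11 for GF14a and -0.083 to 0.092 for OsFD1. Between lines, OsFD1 was at -0.16 to 0.16 at R1, -0.026 to 0.33 at R2, -0.0026 to 0.35 at R4 and -0.012 to 0.17 over R1 and R2, GF14a at -0.12 to 0.025 at R1, GF14b at -0.21 to 0.17 at R2 and -0.35 to 0.32 at R5, GF14c at -0.22 to 0.0097 at R2 and -0.049 to 0.015 at R4, GF14d at -0.35 to 0.044 at R5 and GF14f at -0.18 to 0.21 at R5. Members called were 0 to 1 from R2 to R4 in Koshihikari and 1 to 2 in R4 and R5 of NIL-Gn1. The line comparison at R4 could not be fitted without its only NIL-Gn1 library. Over all alternatives, those without a library among them, loci called ranged from 816 to 1314 for R4 and R5 in Koshihikari (1220 as reported), 92 to 428 in NIL-Gn1 (291), 201 to 446 from R2 to R4 (444), 34 to 112 at R1 (50), 15 to 53 at R2 (37), 3 to 13 at R4 (11), 4 to 27 at R5 (26), 100 to 226 over R1 and R2 (172), 0 to 4 from R1 to R2 (0), 0 to 4 from R4 to R5 (0) and 18 to 45 for the difference between lines (23).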

Other observations

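For the members not described above, the loci with the most similar course over 35 libraries were less close: LOC_Os02g17190 for GF14a (r = 0.653), LOC_Os03g20460 for GF14d (r = 0.651) and LOC_Os12g20324 for GF14f (r = 0.667). Among listed genes, GF14b was most like CAB1R, a chlorophyll a/b-binding protein gene of photosynthetic tissue (r = 0.694), GF14c most like GF14e (r = 0.597) and OsFD1 most like GF14f (r = 0.413). Over the 15 pairs of members r lay between -0.604 and 0.515 across libraries and between -0.406 and 0.249 as deviations from group means. These values share libraries and depth and are descriptions.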
